A study of Caenorhabditis elegans with 22 samples.

Results

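The genes described here are the neuropeptide-like protein genes (nlp genes) of Caenorhabditis elegans other than the epidermal cluster of nlp-27, nlp-28, nlp-29, nlp-30, nlp-31 and nlp-34. They are picked by symbol. Of the 42048 genes in the count table, 44 had an nlp symbol, 6 of these were the cluster left out, and 38 remained. Whole worms of the wild-type strain N2 were compared after 1, 4 or 20 h in S-basal buffer at 20 °C with 5% (v/v) ethanol, against worms kept for the same time in the same buffer with 0% ethanol, called controls here. There were 3 libraries of each of these 6 groups and 4 libraries of time zero, which had not been exposed, 22 in all, and each was made from polyA RNA of a pool of worms. Both ethanol and control worms had been washed off their bacterial food. Time in the buffer, time without food and the age of the worms therefore cannot be told apart in any comparison with time zero.

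Neuropeptides are short signalling molecules cut out of longer precursor proteins. In C. elegans the precursors enter dense-core vesicles, where the proprotein convertase EGL-3 cleaves them at basic residues and the carboxypeptidase EGL-21 trims the ends, and the released peptides act mostly on G-protein-coupled receptors. The nlp genes are those precursors that belong neither to the FMRFamide-like (flp) nor to the insulin-like (ins) families. Most are transcribed in neurons, with exceptions such as nlp-40 in the intestine. They take part in feeding, sleep-like quiescence, egg laying, defecation, learning and locomotion.

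Library totals lay between 10908205 and 15302047 counts, and the members together took 4195 to 9814 counts of a library. The labels describe the worms as L3 larvae, while the series title says L4. Markers of oocytes and eggshell, which are expressed in the adult germ line, summed to between 3908 and 10813 CPM (counts scaled to a common library total, after edgeR's TMM adjustment of that total) at time zero, and to at least 3928 CPM in each library taken later, which goes against both of those stages. All 15 neuron markers passed the filter on low counts, with a summed level of 257 to 512 CPM over the 22 libraries. Of the 38 members, 35 passed that filter. The 3 others were nlp-22, nlp-23 and nlp-32, of which nlp-23 had at most 5 counts in a library and the other two at most 1.

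Libraries of the same group differed along a main axis that took 41.4% of the variance within groups over all tested genes. There were 6 libraries with a score above 10 on it, namely replicate 2 of ethanol worms at 1 h, of control worms at 1 h and of ethanol worms at 4 h, replicate 3 of ethanol worms at 20 h, replicate 1 of control worms at 20 h and replicate 1 of time zero. The sign of the axis was set so that the median weight of the oocyte and eggshell markers on it was positive. The cut takes only 1 side of the axis, so libraries far out on the other side stayed in. Control replicate 1 at 1 h scored -41.6, beside 35.4 and 6.20 in replicates 2 and 3.

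Levels of different genes were compared as CPM per kilobase of exon. At time zero nlp-24 stood highest with 288 ± 41.6 CPM per kb (SD, n = 4), followed by nlp-36 with 253 ± 41.1 and the intestinal gene nlp-40 with 185 ± 23.2. nlp-24 and nlp-36 differed by less than their SD, and nlp-36 and nlp-40 by more. nlp-26 and nlp-33 came next with 95 ± 10.4 and 44.1 ± 6.74 CPM per kb, and then nlp-20 with 24.8 ± 3.13. The order was another one after 20 h. In ethanol worms at 20 h nlp-40 led with 204 ± 32.7 CPM per kb and nlp-36 followed with 168 ± 22.1 (SD, n = 3), while nlp-24 had 6.26 ± 2.69. In control worms at 20 h nlp-39, for which no read was counted at time zero, stood highest with 224 ± 14.7 CPM per kb, ahead of nlp-40 with 166 ± 40.5 and nlp-36 with 129 ± 32.6, of which the last 2 differed by less than the SD of nlp-40. nlp-37, nlp-38 and nlp-42 could not be matched to the annotation used for exon lengths, so no level per kb was computed for them.

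**Figure D1:**
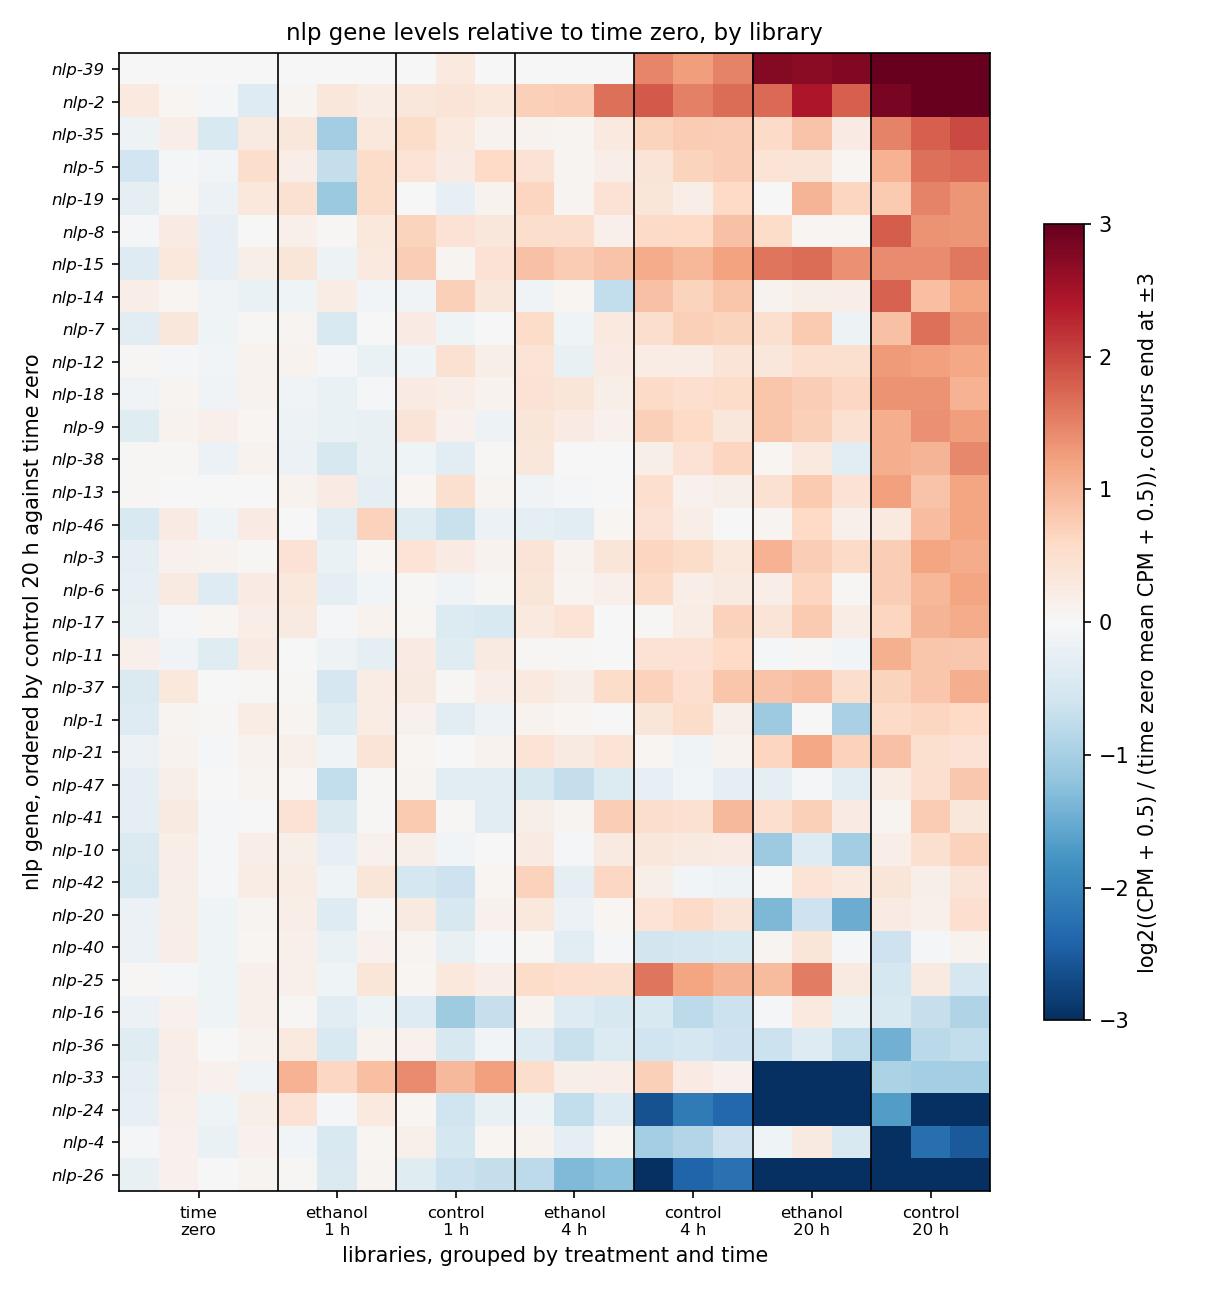
Heat map of the 35 tested nlp genes (rows) in the 22 libraries (columns, grouped by treatment and time). Colour gives log2 of the CPM, plus 0.5, over the mean CPM at time zero, plus 0.5, with red above and blue below time zero and the scale ending at ±3. Most rows are red in the 3 control libraries at 20 h and paler in the 3 ethanol libraries at 20 h, while nlp-24, nlp-26 and nlp-33 are blue in both groups.

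Ethanol worms were set against the control worms of their own time point by edgeR's quasi-likelihood test over 15310 genes, with Benjamini-Hochberg adjusted p under 0.05 as the threshold for "rose", "fell" or "called". After 20 h, 20 of the 35 tested members fell and 3 rose, where 53.2% of all tested genes were called, 28.1% lower and 25% higher. The median change of the members was -0.74 on the log2 scale, against -0.06 for all tested genes and 0.08 for the 8979 tested genes with exons as long as those of the members, 240 to 1732 bases. After 4 h, 3 members rose and 3 fell, with 30.5% of all genes called, 17.1% higher and 13.4% lower, and the median change was -0.28 against 0.00. A fit of only the libraries of those 2 groups called 6 members higher and 5 lower at 4 h, with 27.1% of all genes higher and 20.5% lower. After 1 h edgeR called 0 members, with 6.67% of all genes called, 4.94% higher and 1.72% lower. DESeq2 also called 0 then, and 2 members had an unadjusted p under 0.05. In RNA from whole worms, fewer cells that express a gene and less RNA per cell cannot be told apart.

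Beside the fall at 20 h, 11 of the 15 neuron markers fell and 1 rose, with a median of -1.08. Without the 6 libraries above 10 on the axis, 9 of these markers fell and 2 rose (median -0.58). Their summed level was 312 to 340 CPM in ethanol worms and 321 to 512 CPM in control worms, so the sums overlapped. Markers of other tissues changed as well. All 8 body wall muscle markers fell (median -1.76), 7 of 13 epidermis markers fell and 0 rose (median -3.23), and 9 of 13 intestine markers fell while 3 rose (median -1.57). No member of these 3 lists was at 0 in either group. Of the early embryo markers 7 of 8 tested fell (median -3.44), of the mid and late embryo markers 6 of 10 fell and 1 rose (median -2.70), and of the sperm markers 8 of 10 tested rose (median 2.23). Pharynx markers fell in 6 of 10 and rose in 2 (median -1.81), and oocyte and eggshell markers fell in 2 of 12 and rose in 1 (median -0.39). The part of these changes in the result for the nlp genes was not tested.

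**Figure D2:**
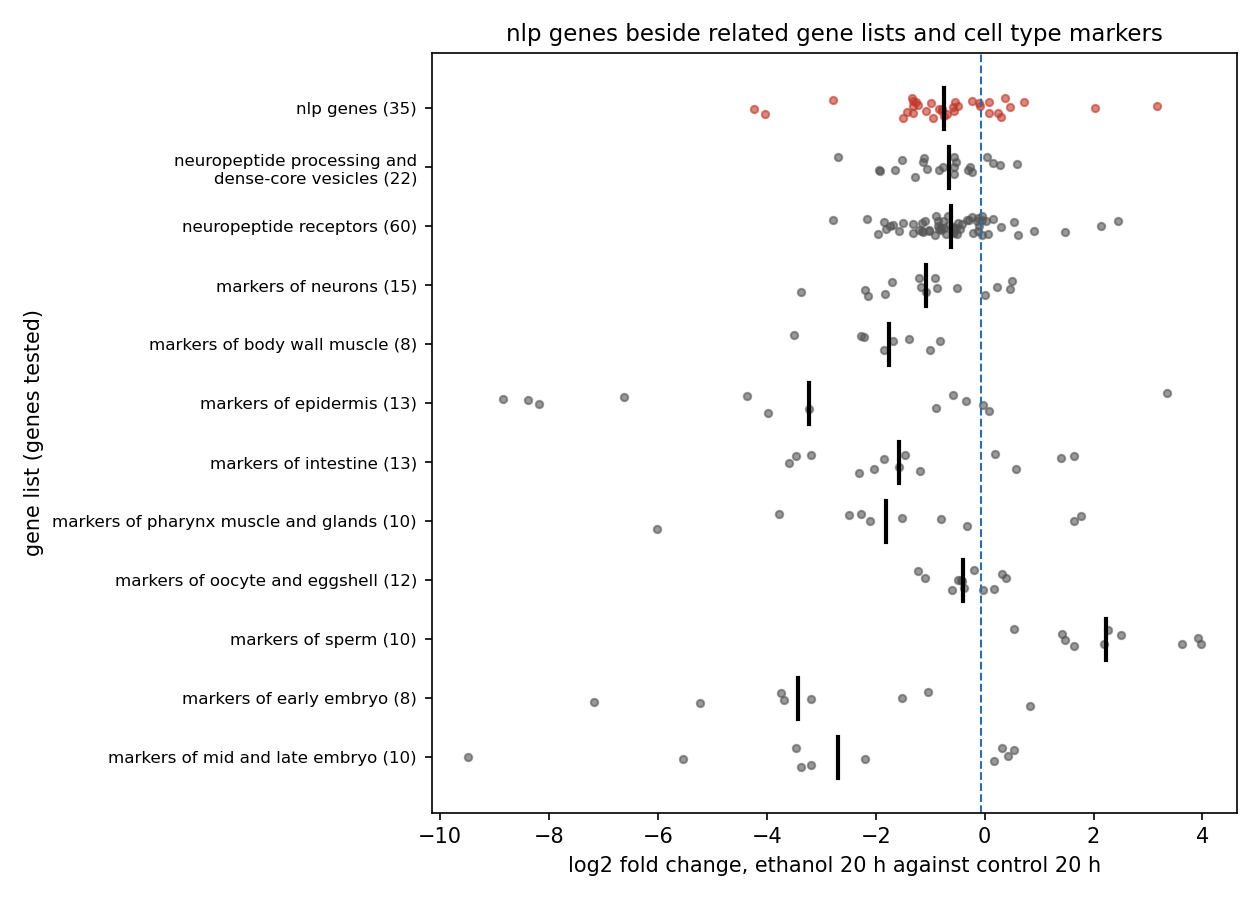
Log2 fold change between ethanol and control worms at 20 h for the 35 nlp genes (red points) and for other gene lists (grey points). These are the genes of neuropeptide processing and dense-core vesicles, the neuropeptide receptors and the markers of 9 cell types or stages. Each list has its median as a black bar. The dashed line is the median of all tested genes, -0.06. The median lies at -0.74 for the nlp genes and at -1.08 for the neuron markers, while sperm markers lie to the right of the dashed line with a median of 2.23.

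nlp-39 gave the lowest fold change at 20 h. The 3 ethanol libraries had 2.87, 2.76 and 2.93 CPM and the 3 control libraries 54.8, 49.9 and 56.7 CPM. Each group was tight and far from the other. The level in ethanol worms was 18.8-fold lower (log2 fold change -4.23 ± 0.22, SE, adjusted p = 1.6e-09). Reads of nlp-39 were hardly counted before 4 h. It had 0 counts in the 4 time zero libraries and 1 count over the 6 libraries at 1 h. At 4 h it had 0 counts over the 3 ethanol libraries, against 33 over the 3 control libraries with 0.871, 0.686 and 0.914 CPM. A count of 0 set at the floor of 3 counts over the group makes ethanol worms at least 10.96-fold lower at 4 h, and the adjusted p was 1.33e-05. Against time zero on the same floor, the level was at least 888-fold higher in control worms at 20 h (2123 counts) and at least 47.4-fold higher in ethanol worms at 20 h (131 counts). nlp-39 is the shortest matched member with 240 bases of exon on chromosome I.

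The genes nlp-24, nlp-25, nlp-26, nlp-32 and nlp-33 encode precursors with repeats rich in tyrosine and glycine (YGGW-like peptides). They are relatives of the epidermal antimicrobial-like genes of the cluster that was left out, and nlp-24 encodes opioid-like peptides that act on feeding during starvation through the receptor NPR-17. Ethanol and control worms differed in 4 of the 5, and not in the same direction at each time. The fifth, nlp-32, had no more than 1 count in a library. nlp-25 and nlp-26 lie close together on chromosome V, with grsp-1 between them. How reads that map to several places were handled is not given in the sources used here, so counts of these related genes are uncertain.

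nlp-24 had 90.9, 122, 100 and 122 CPM at time zero. At 1 h the ethanol libraries had 147, 105 and 134 CPM and the control libraries 112, 71.9 and 92.5 CPM, and the ranges overlapped. At 4 h the 3 ethanol libraries, with 97, 64.5 and 82.6 CPM, were all above the 3 control libraries, with 17.3, 24.6 and 20.9 CPM. This was a 3.89-fold higher level in ethanol worms (log2 fold change 1.96 ± 0.42, adjusted p = 0.00114). At 20 h the order was turned round, with 1.83, 3.53 and 1.73 CPM in ethanol worms and 33.6, 7.21 and 7.55 CPM in control worms. All ethanol libraries were below all control libraries, and control replicate 1 stood apart from the other two controls. The log2 fold change at 20 h was -2.79 ± 0.47 (adjusted p = 4.53e-05), and it was -1.66 (adjusted p = 6.51e-05) without control replicate 1.

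nlp-26 was likewise higher in ethanol than in control worms at 4 h. It had 31.6, 40.6, 36.5 and 39.5 CPM at time zero. At 4 h the ethanol libraries had 21.2, 14.5 and 15.6 CPM and the control libraries 4.27, 6.66 and 7.45 CPM, without overlap (log2 fold change 1.47 ± 0.36, adjusted p = 0.00334). So both groups were below time zero at 4 h, the control worms further than the ethanol worms. At 20 h the values were 0.849, 1.84 and 0.690 CPM in ethanol worms and 1.83, 0.212 and 0.325 CPM in control worms. These overlapped and gave 0.47 ± 0.53 (adjusted p = 0.483), which became 2.00 (adjusted p = 0.00522) without control replicate 1.

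nlp-33 was first higher than time zero in both groups and then fell away. It had 12.5, 17.5, 16.7 and 14.1 CPM at time zero, and at 1 h 31.7, 23.7 and 28.9 CPM in ethanol worms and 41.2, 30.1 and 36.3 CPM in control worms. At 20 h it had 0.718, 0.460 and 0.173 CPM in ethanol worms and 7.64, 7.21 and 7.22 CPM in control worms. The groups lay far apart at 20 h and overlapped at 1 and 4 h. The level at 20 h was 16.4-fold lower in ethanol worms (log2 fold change -4.03 ± 0.31, adjusted p = 1.07e-09). Summed epidermis markers were 163 to 259 CPM in ethanol worms and 1829 to 2320 CPM in control worms at 20 h, and their part in this result was not tested.

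nlp-25 was low in all libraries and went the other way from nlp-24. At 4 h it had 0.888, 0.834 and 0.817 CPM in ethanol worms and 2.35, 1.65 and 1.41 CPM in control worms, which did not overlap and gave -1.07 ± 0.41 (adjusted p = 0.0562). At 20 h it had 1.31, 2.22 and 0.633 CPM in ethanol worms and 0.153, 0.636 and 0.162 CPM in control worms. The log2 fold change was 2.03 ± 0.48 (adjusted p = 0.00133), although the lowest ethanol library and the highest control library were at the same level, and it was 3.04 without control replicate 2.

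nlp-4 was the member with the largest rise at 20 h. Its function is not described here. The ethanol libraries had 6.40, 8.59 and 5.01 CPM and the control libraries 0.306, 1.06 and 0.811 CPM, without overlap. The level was 8.98-fold higher in ethanol worms (log2 fold change 3.17 ± 0.32, adjusted p = 5.52e-08). Time zero had 6.70, 7.66, 6.03 and 7.66 CPM, which overlapped the ethanol libraries at 20 h, and the control libraries lay below all of them. At 4 h ethanol worms were also higher, with 7.62, 5.77 and 7.35 CPM against 3.22, 3.57 and 4.36 CPM in control worms (log2 fold change 0.89 ± 0.27, adjusted p = 0.0142). That smaller difference lost its call without control replicate 1 or 2 or ethanol replicate 1, with adjusted p between 0.0513 and 0.0629. nlp-16 also rose at 20 h, with 13.3, 16.6 and 11.7 CPM in ethanol worms and 9.78, 8.2 and 7.06 CPM in control worms (0.73 ± 0.20, adjusted p = 0.00477).

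**Figure D3:**
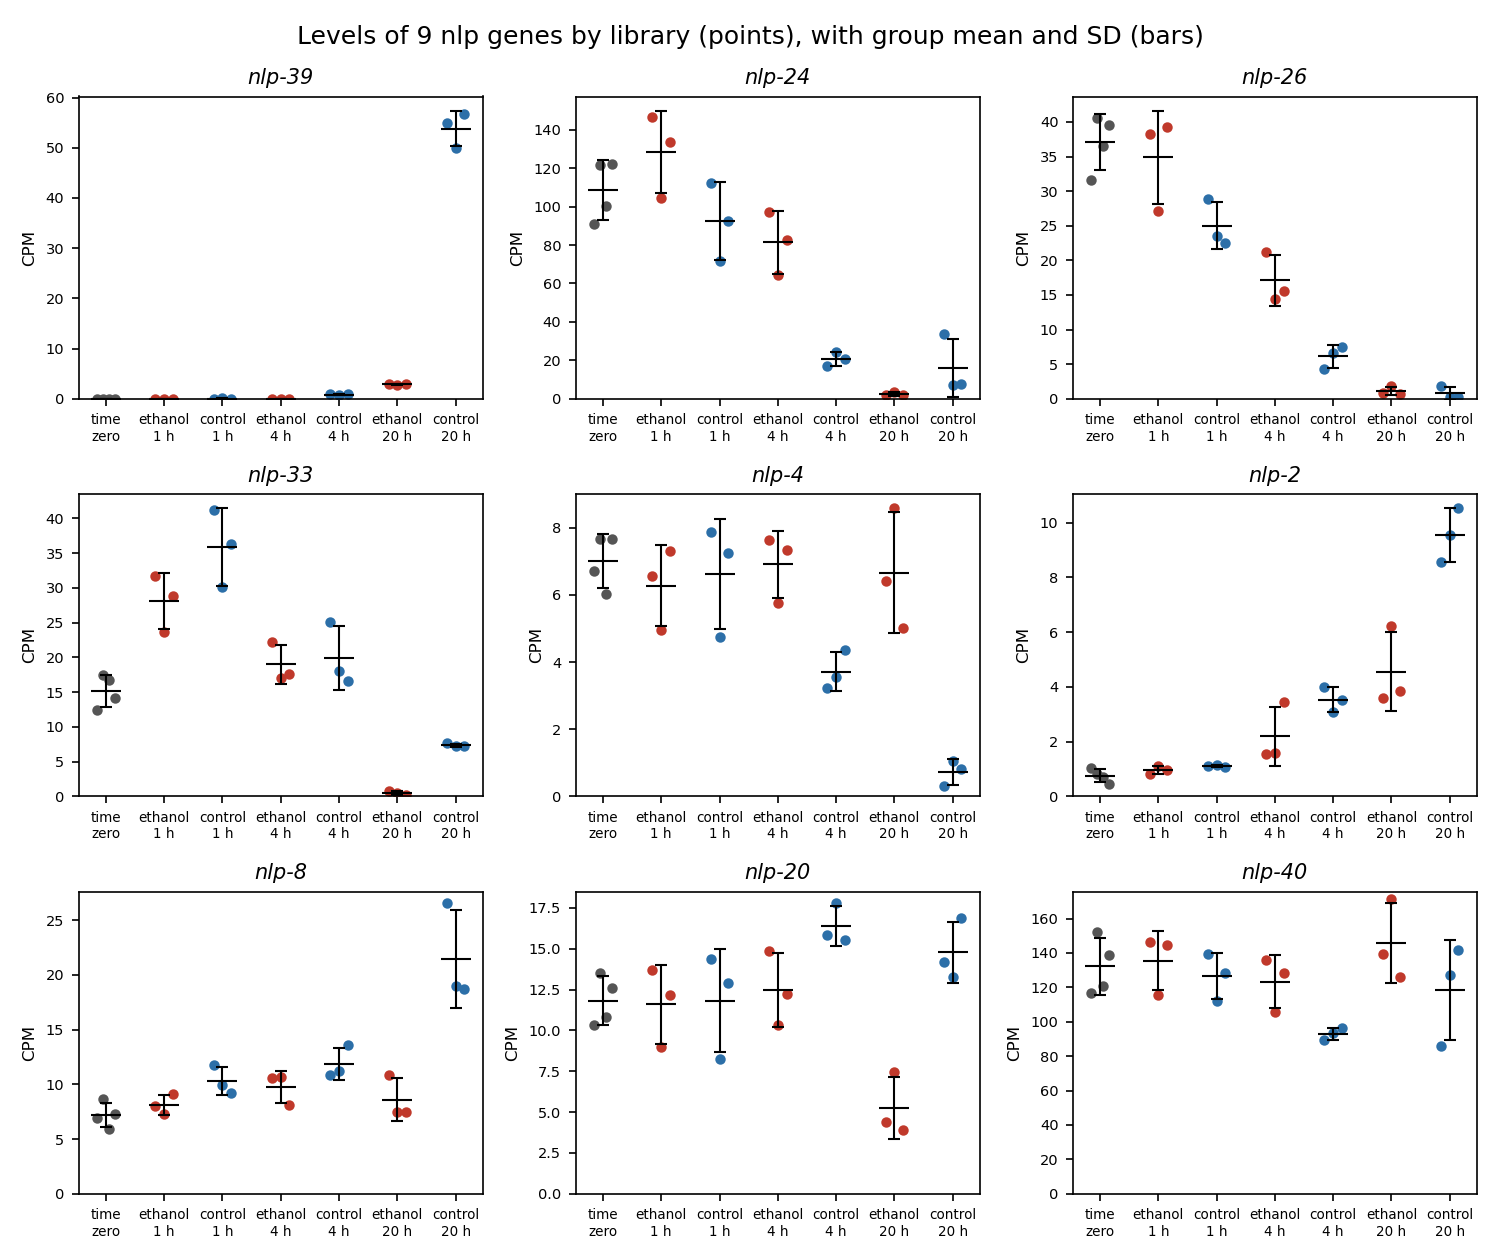
CPM of 9 nlp genes by library (points; grey time zero, red ethanol, blue control), with the group mean and SD (bars), over time zero and 1, 4 and 20 h. The panel of nlp-39 has its highest points in control worms at 20 h, near 54 CPM. nlp-24 and nlp-26 are lower at 20 h than at time zero in both groups, and higher in ethanol than in control worms at 4 h. nlp-4 falls in control worms, and nlp-40 shows overlapping groups at 20 h.

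Among genes with a role in sleep-like states and movement, nlp-8 and nlp-14 are made in the ALA neuron, which drives stress-induced quiescence. nlp-8 had 10.8, 7.52 and 7.48 CPM in ethanol worms and 26.6, 19 and 18.7 CPM in control worms, a 2.48-fold lower level without overlap (log2 fold change -1.31 ± 0.19, adjusted p = 7.75e-06). nlp-14 had 7.38, 7.75 and 7.88 CPM in ethanol worms and 24.4, 13.2 and 16.2 CPM in control worms (-1.23 ± 0.24, adjusted p = 0.000199). Ethanol libraries were again below control libraries in both genes. nlp-14 was already lower at 4 h, with 6.36, 7.23 and 3.92 CPM in ethanol worms and 13.1, 11.2 and 12.6 CPM in control worms (-1.07 ± 0.24, adjusted p = 0.002). nlp-15, which like nlp-14 encodes orcokinin-like peptides, had 30.7 ± 3.44 CPM in ethanol worms and 29.1 ± 1.89 CPM in control worms at 20 h (SD, n = 3 each). Its difference of 0.08 ± 0.19 did not pass the test (adjusted p = 0.748).

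nlp-12 encodes cholecystokinin-like peptides of the DVA neuron that adjust body bending. It had 4.96, 5.60 and 5.58 CPM in ethanol worms and 10.01, 9.68 and 9.25 CPM in control worms at 20 h, without overlap (-0.84 ± 0.18, adjusted p = 0.000534). The RPamide genes nlp-2, nlp-22, nlp-23 and nlp-46 include the sleep peptide gene nlp-22, and nlp-2, nlp-22 and nlp-23 lie side by side on chromosome X. nlp-2 had 3.59, 6.21 and 3.86 CPM in ethanol worms and 8.55, 9.54 and 10.5 CPM in control worms at 20 h (-1.07 ± 0.26, adjusted p = 0.00144), with no overlap. nlp-46 had 1.14 ± 0.341 CPM in ethanol worms and 1.90 ± 0.696 CPM in control worms (-0.74 ± 0.38, adjusted p = 0.109), and was called lower without control replicate 1 (-1.01, adjusted p = 0.0298). nlp-46, with 440 bases of exon, overlaps a gene on the other strand by 88 bases. The strand setting of the counting is not given, so reads within those 88 bases cannot be told apart from reads of that gene. Shorter overlaps with a gene on the other strand, of 8 to 68 bases, lie in nlp-35, nlp-21, nlp-17, nlp-26, nlp-24, nlp-36 and nlp-41. The same holds for reads within these overlaps, but not for reads outside them. nlp-22 and nlp-23 were too low to test.

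Of members that act in sensory neurons and egg laying, nlp-1 fell at 20 h and nlp-3 did not pass the test. nlp-1 is released by the olfactory neuron AWC and acts on the AIA interneuron through NPR-11. It had 2.48, 5.75 and 2.7 CPM in ethanol worms and 8.86, 9.33 and 9.01 CPM in control worms at 20 h (-1.33 ± 0.26, adjusted p = 0.000187), with ethanol replicate 2 above the other ethanol libraries but below all controls. nlp-3 stimulates egg laying from the HSN neurons. It had 15.1, 12 and 10.7 CPM in ethanol worms and 12, 16.5 and 15.7 CPM in control worms, which overlapped (-0.23 ± 0.19, adjusted p = 0.325). nlp-7, which inhibits egg laying, had 11, 13.8 and 6.90 CPM in ethanol worms and 14.8, 25.3 and 20.6 CPM in control worms. That was lower by the test (-0.94 ± 0.25, adjusted p = 0.00335), with the highest ethanol library just under the lowest control.

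nlp-40 is the intestinal peptide gene whose product times the defecation motor program through the receptor AEX-2 on neurons. It was among the most abundant members in every group. At 20 h it had 139, 171 and 126 CPM in ethanol worms and 86.1, 127 and 142 CPM in control worms, which overlapped (0.30 ± 0.17, adjusted p = 0.158). At 4 h all 3 ethanol libraries, with 136, 106 and 128 CPM, were above the control libraries, with 89.4, 93.3 and 96.1 CPM, but the difference of 0.41 ± 0.17 did not pass the test (adjusted p = 0.0845). The summed intestine markers lay lower in ethanol than in control worms at both times. They were at 13098 to 28867 CPM against 46886 to 88013 CPM at 20 h and at 33047 to 51502 CPM against 61491 to 68997 CPM at 4 h. The most abundant markers weigh most in these sums. Of the 13 markers, 9 fell and 3 rose at 20 h, and 6 fell and 2 rose at 4 h. nlp-47 encodes a peptide related to gonadotropin-releasing and adipokinetic hormones. It had 10.8, 13.1 and 10.5 CPM in ethanol worms and 15.8, 19.3 and 23.9 CPM in control worms at 20 h (-0.78 ± 0.21, adjusted p = 0.00316), without overlap.

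nlp-10 and nlp-20 fell by similar amounts. nlp-10 had 6.20, 10.5 and 6.44 CPM in ethanol worms and 16, 19.4 and 22.5 CPM in control worms at 20 h (-1.32 ± 0.21, adjusted p = 2.03e-05). nlp-20 had 4.38, 7.44 and 3.91 CPM in ethanol worms and 14.2, 13.3 and 16.9 CPM in control worms (-1.50 ± 0.24, adjusted p = 2.19e-05). Both had ethanol replicate 2 as the highest ethanol library, and neither overlapped. nlp-38, which encodes myoinhibitory-type peptides, was lower by 1.26 ± 0.20 on the log2 scale with 4.36 ± 1.05 CPM in ethanol worms and 10.4 ± 1.73 CPM in control worms (SD, n = 3 each, adjusted p = 1.81e-05). The other members that fell at 20 h were nlp-5, nlp-35, nlp-11, nlp-6, nlp-9, nlp-13 and nlp-18, with log2 fold changes between -1.42 and -0.54. nlp-9 and nlp-13 lie next to each other on chromosome V and had nearly equal changes of -0.58 and -0.56. The smaller of these falls lost their calls in places. nlp-6 (-0.70 ± 0.21) and nlp-13 did so without ethanol replicate 1 or 3 (adjusted p 0.052 to 0.0813), nlp-9 without ethanol replicate 3 (0.0763), and nlp-13 and nlp-18 when the fit held only these 2 groups (0.0736 and 0.0646). nlp-11 was also called lower at 4 h (-0.50 ± 0.18, adjusted p = 0.0402), with 6.84 ± 0.130 CPM in ethanol worms and 9.69 ± 0.619 CPM in control worms. That call was lost without any 1 of the 6 libraries (adjusted p 0.0679 to 0.133).

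The remaining tested members did not pass the test at 20 h. nlp-36, of high level, had 59.1 ± 7.77 CPM in ethanol worms and 45.5 ± 11.5 CPM in control worms (0.38 ± 0.21, adjusted p = 0.143). nlp-21, whose product is widely used as a reporter of dense-core vesicle release, had 19.5 ± 4.09 CPM in ethanol worms and 16.4 ± 2.96 CPM in control worms (0.25 ± 0.17, adjusted p = 0.222). nlp-37, also named pdf-2 and encoding a pigment-dispersing factor, had 6.94 ± 1.09 CPM in ethanol worms and 7.43 ± 1.15 CPM in control worms (-0.10 ± 0.22, adjusted p = 0.719). nlp-17, nlp-19, nlp-41 and nlp-42 had log2 fold changes between -0.78 and 0.08. Of these, nlp-17 was called without control replicate 1 or ethanol replicate 2 (adjusted p 0.0262 and 0.025). Libraries did not overlap in 22 of the 35 tested members, 2 higher and 20 lower in ethanol worms, where 55.4% of all tested genes did not overlap, 27.1% higher and 28.4% lower. Of the 23 called members, nlp-25 was the one with an overlap.

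**Figure D4:**
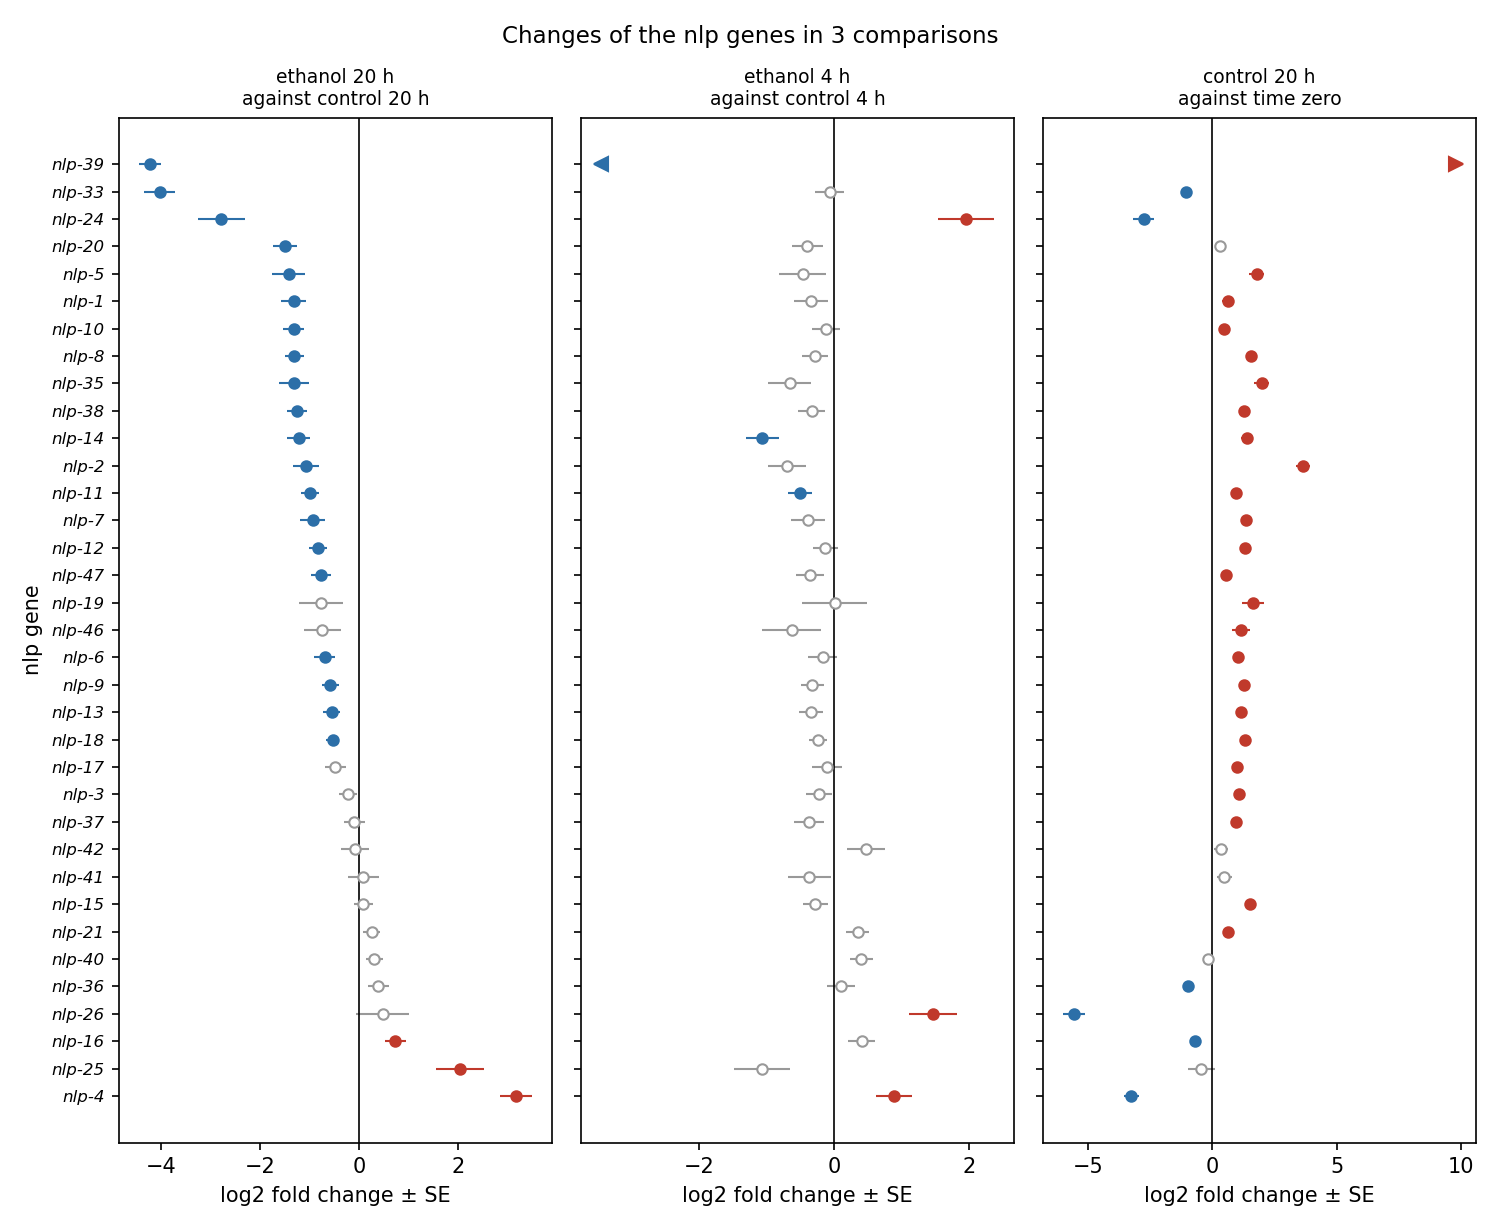
Log2 fold change and SE (bars) of the 35 tested nlp genes in 3 comparisons, in the order of the change between ethanol and control worms at 20 h. Filled red and blue points passed the test (higher and lower), open grey points did not, and triangles for nlp-39 are bounds from the floor of 3 counts where 1 group had 0 counts. At 20 h 20 genes are blue in the ethanol panel, and 24 are red in control worms against time zero.

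The change of the ethanol effect over time was tested directly, by the ethanol-by-time terms of the same fit. The effect differed between times in 9 of the 35 members, where 40.7% of all tested genes differed. The 9 were nlp-33, nlp-4, nlp-24, nlp-10, nlp-25, nlp-20, nlp-8, nlp-38 and nlp-1, with adjusted p from 1.12e-07 to 0.00833. Without the 6 libraries above 10 on the axis the effect differed in 17 members, where 43.2% of all genes differed. Between 1 and 4 h edgeR called 0 members, with 13.1% of all genes called (6.74% up and 6.4% down) and 3 members at an unadjusted p under 0.05, and DESeq2 was not run on this term. Without the 6 libraries it moved up in 3 and down in 1, with 17.4% of all genes called, 9.25% up and 8.16% down. Between 4 and 20 h the effect moved up in 2 members and down in 8, with 32.3% of all genes called, 15.4% up and 16.9% down. That count of 8 was 5 without ethanol replicate 1 at 4 h or at 20 h, and 4 without ethanol replicate 3 at 20 h. Of all genes, 14.4%, 14.3% and 14.2% moved down in those 3 fits. nlp-24 moved by -4.75 ± 0.63 on the log2 scale (adjusted p = 7.62e-06), with a positive difference at 4 h and a negative one at 20 h, and by -3.62 (adjusted p = 2.43e-07) without control replicate 1 at 20 h. nlp-33 moved by -3.97 ± 0.38 (adjusted p = 1.19e-07), nlp-25 by 3.10 ± 0.64 (adjusted p = 0.00073, and 4.11 without control replicate 2 at 20 h) and nlp-4 by 2.28 ± 0.42 (adjusted p = 0.000257). Between 1 and 20 h it moved up in 2 members and down in 11, with 35.7% of all genes called, 15.5% up and 20.2% down. The count of 11 was 7 without ethanol replicate 1 or 3 at 20 h, with 17.7% and 17.3% of all genes down.

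The same control libraries are the other side of the ethanol comparisons, so changes of the controls since time zero are given as their own values. After 20 h in buffer 24 of the 35 tested members rose in control worms and 6 fell, with 55.1% of all genes called, 30.8% higher and 24.4% lower. The median change was 1.01, against 0.07 for all tested genes. After 4 h 15 members rose and 6 fell, with 46.2% of all genes called, 22.9% higher and 23.3% lower, and the median was 0.47 against -0.06. After 1 h 1 member rose, nlp-33 (1.24 ± 0.20, adjusted p = 0.000198), and 1 fell, nlp-16 (-0.71 ± 0.19, adjusted p = 0.0193), with 10.8% of all genes called, 5.33% higher and 5.49% lower. The fall of nlp-16 lost its call without control replicate 2 or 3 or time zero replicate 2 or 4 (adjusted p 0.0539 to 0.175).

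The rise of nlp-2 in the controls was the largest among members with counts in both groups. It had 8.55, 9.54 and 10.5 CPM in control worms at 20 h and 1.02, 0.806, 0.720 and 0.464 CPM at time zero, a 12.6-fold higher level (3.66 ± 0.28, adjusted p = 6.84e-10). At 4 h it already had 4.01, 3.09 and 3.51 CPM (2.22 ± 0.30, adjusted p = 4.89e-06). nlp-2 thus stood above time zero at both times without overlap. nlp-35 (1.98 ± 0.29), nlp-5 (1.78 ± 0.32), nlp-19 (1.65 ± 0.44) and nlp-8 (1.57 ± 0.18) followed at 20 h, with adjusted p of 0.00295 or less. nlp-15 (1.52 ± 0.18), nlp-14 (1.39 ± 0.22), nlp-7 (1.38 ± 0.24), nlp-12 (1.33 ± 0.17) and nlp-3 (1.07 ± 0.18) rose as well. The rises of nlp-10 (0.47 ± 0.19, adjusted p = 0.0408) and nlp-47 (0.55 ± 0.19, adjusted p = 0.0177) were small. nlp-10 lost its call without time zero replicate 1 or 3 or control replicate 2 or 3 (adjusted p 0.08 to 0.188), with DESeq2 (0.0598), RLE factors (0.0627), no count filter (0.127) and only these groups in the fit (0.0996). nlp-47 lost it without time zero replicate 1 or control replicate 3 (adjusted p 0.0722 and 0.13) and with no count filter (0.0617).

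nlp-26 had 1.83, 0.212 and 0.325 CPM in control worms at 20 h and lay at 31.6 to 40.6 CPM at time zero (-5.54 ± 0.45, adjusted p = 1.38e-09). Without control replicate 1 this was -7.08. nlp-4 fell by 3.25 ± 0.31 on the log2 scale (adjusted p = 1.53e-08) and nlp-24 by 2.75 ± 0.42 (adjusted p = 1.01e-05), the second with -3.88 when control replicate 1 was left out. nlp-33, nlp-36 and nlp-16 fell by 1.05 ± 0.22, 0.97 ± 0.20 and 0.70 ± 0.19, with adjusted p of 0.00401 or less. Those 6 were all the members that fell. In the same comparison 8 of 15 neuron markers rose and 0 fell (median 0.57). Without the 6 libraries above 10 on the axis 6 rose and 2 fell. In the fit of all libraries all 10 tested sperm markers fell (median -4.23), and 7 of 8 tested early embryo markers rose (median 4.91). Mid and late embryo markers rose in 7 of 10 and fell in 0 (median 2.42). Epidermis markers rose in 7 of 13 and fell in 4 (median 1.78). Body wall muscle markers rose in 4 of 8 and fell in 2 (median 0.68). Pharynx markers rose in 4 of 10 and fell in 2 (median 0.77). Intestine markers rose in 3 of 13 and fell in 4 (median -0.31). Oocyte and eggshell markers rose in 2 of 12 and fell in 0 (median -0.13). Summed early embryo markers were 54.7 to 93.3 CPM in control worms at 20 h and 8.82 to 12.3 CPM at time zero, where med-1 and tbx-37 were at 0. The part of these markers in the rises of the members was not tested.

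Ethanol worms at 20 h were also set against time zero, a comparison that was added after the data had been seen. There 12 members rose and 7 fell, with 53% of all genes called, 26.5% higher and 26.6% lower, and the median change was 0.36 against -0.03. nlp-15 rose with 31.7, 33.5 and 26.9 CPM in ethanol worms at 20 h, against 7.63, 12.8, 8.46 and 11.5 CPM at time zero (1.60 ± 0.18, adjusted p = 2.44e-07), and nlp-2 rose by 2.58 ± 0.29 (adjusted p = 2.68e-07). nlp-24 (-5.54 ± 0.50), nlp-33 (-5.08 ± 0.30) and nlp-26 (-5.07 ± 0.42) had the largest falls, with adjusted p of 1.35e-08 or less. nlp-20 (-1.18 ± 0.23, adjusted p = 0.000209), nlp-10 (-0.85 ± 0.20, adjusted p = 0.00132) and nlp-1 (-0.69 ± 0.25, adjusted p = 0.024) were lower than time zero as well, although the libraries of the last 2 overlapped. The fall of nlp-1 lost its call without ethanol replicate 1 or 3 or time zero replicate 4 (adjusted p 0.0653 to 0.136) and with only these groups in the fit (0.0585). Values of nlp-8 (0.26 ± 0.18), nlp-14 (0.16 ± 0.23), nlp-11 (-0.04 ± 0.17) and nlp-38 (0.02 ± 0.19) did not pass the test in this comparison, with adjusted p of at least 0.251. All 4 had been higher in control worms at 20 h than at time zero, by 0.95 to 1.57.

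Genes of neuropeptide processing and dense-core vesicles, with related peptidase genes, were examined as a list of 22, all of them tested. Whether each of them acts on neuropeptides in these worms was not tested. At 20 h 15 of them fell in ethanol worms and 0 rose, with a median of -0.66, where 28.1% of all tested genes were lower and 25% higher. cpd-2, which encodes a carboxypeptidase D, had 1.73 ± 0.750 CPM in ethanol worms and 11.2 ± 2 CPM in control worms (-2.70 ± 0.28, adjusted p = 5.78e-08). pghm-1, which encodes an amidating monooxygenase, had 33.6 ± 0.534 CPM in ethanol worms and 70.3 ± 6.05 CPM in control worms (-1.07 ± 0.13, adjusted p = 4.84e-07), and egl-21 had 96.8 ± 4.64 CPM in ethanol worms and 173 ± 15.27 CPM in control worms (-0.83 ± 0.11, adjusted p = 1.23e-06). At 4 h 7 of the 22 fell and 2 rose, where 13.4% of all tested genes were lower and 17.1% higher. Without the 6 libraries above 10 on the axis 11 fell and 3 rose. egl-21 changed by -0.57 ± 0.11 and nep-2, a neprilysin-type peptidase gene, by -1.58 ± 0.32. One of the 2 that rose in the fit of all libraries was unc-31, which encodes the CAPS protein of dense-core vesicle release. It had 12 ± 1.88 CPM in ethanol worms and 4.29 ± 0.228 CPM in control worms at 4 h (1.49 ± 0.28, adjusted p = 0.00034). It was the only gene of the list called at 1 h (1.61 ± 0.28, adjusted p = 0.000738). In control worms against time zero 15 of the 22 rose and 1 fell at 20 h (median 0.81), where 30.8% of all genes were higher and 24.4% lower.

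Neuropeptide receptors were listed as 73 genes, of which 71 were in the table and 60 were tested. The list was broad and not limited to receptors of nlp peptides. At 20 h 23 fell and 5 rose in ethanol worms (median -0.62), where 28.1% of all tested genes were lower and 25% higher. Without the 6 libraries above 10 on the axis 16 fell and 5 rose (median -0.41), beside 28.4% of all genes lower and 26.4% higher. At 4 h 14 fell and 6 rose (median -0.50), beside 13.4% lower and 17.1% higher, and 11 fell and 6 rose without those libraries, beside 17.2% and 20.9%. At 1 h 2 fell and 1 rose, beside 1.72% lower and 4.94% higher. The neuromedin U receptor gene nmur-4 rose at each time, with 20.5 ± 5.44, 19.3 ± 2.05 and 22.2 ± 9.68 CPM in ethanol worms at 1, 4 and 20 h and 4.89 ± 0.533, 1.9 ± 0.587 and 4.04 ± 1.88 CPM in control worms (SD, n = 3 each). Its log2 fold changes were 2.06 ± 0.32, 3.36 ± 0.34 and 2.45 ± 0.32 (adjusted p of 0.000165 or less).

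Receptors that pair with a member were looked up after their values could be seen. npr-17, the receptor gene for nlp-24 peptides, had 6.59, 6.32 and 8 CPM in ethanol worms and 2.35, 2.20 and 2.25 CPM in control worms at 4 h (1.62 ± 0.25, adjusted p = 3.2e-05), the time at which nlp-24 itself was higher. At 1 h npr-17 was lower in ethanol worms (-0.91 ± 0.26, adjusted p = 0.0389), and at 20 h it was higher (0.62 ± 0.25, adjusted p = 0.0419), while nlp-24 was lower. ckr-2, a receptor gene for nlp-12 peptides, was lower in ethanol worms at 4 h (-1.66 ± 0.31, adjusted p = 0.000269) and at 20 h, with 4.05, 4.30 and 4.14 CPM in ethanol worms and 12.3, 7.28 and 5.84 CPM in control worms (-1.02 ± 0.26, adjusted p = 0.00262). ckr-1, the other receptor gene for nlp-12 peptides, was not called at 4 h (-1.13 ± 0.61, adjusted p = 0.183) or at 20 h (-1.32 ± 0.58, adjusted p = 0.0639). At 20 h npr-11 for nlp-1 (-1.68 ± 0.49, adjusted p = 0.00674) and aex-2 for nlp-40 (-1.03 ± 0.35, adjusted p = 0.0177) were also lower. Both were low in level. npr-11 had 0.327, 0.153 and 0.115 CPM in ethanol worms and 0.917, 0.636 and 0.406 CPM in control worms. aex-2 had 0.784, 1.76 and 0.921 CPM in ethanol worms and 2.98, 1.98 and 2.03 CPM in control worms. The fits for gnrr-1 with nlp-47 (-0.42 ± 0.54, adjusted p = 0.535), pdfr-1 with nlp-37 (-0.05 ± 0.19, adjusted p = 0.835) and sprr-2 with nlp-38 (0.03 ± 0.37, adjusted p = 0.958) gave no call at 20 h, and sprr-2 was higher in ethanol worms at 4 h (0.85 ± 0.32, adjusted p = 0.0464).

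In all 6 libraries that scored above 10 on the main axis within groups, the median deviation of the members from their group mean was negative, from -0.28 to -0.15 on the log2 scale. In control replicate 1 at 20 h the neuron markers deviated the other way, with a median of 0.58, against -0.39 and -0.21 in the other 2 controls. Without these 6 libraries the count at 20 h was 5 members higher and 20 lower in ethanol worms, where 26.4% of all tested genes were higher and 28.4% lower. Newly called were nlp-26 (2.26, adjusted p = 0.00289), nlp-21 (0.46, adjusted p = 0.0298) and nlp-19 (-1.04, adjusted p = 0.0224), nlp-13 was no longer called (adjusted p = 0.0721), and nlp-24 gave -1.49. At 4 h 5 members were higher without them, with 20.9% of all genes higher. What lies behind the scores of these libraries was not tested.

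**Figure D5:**
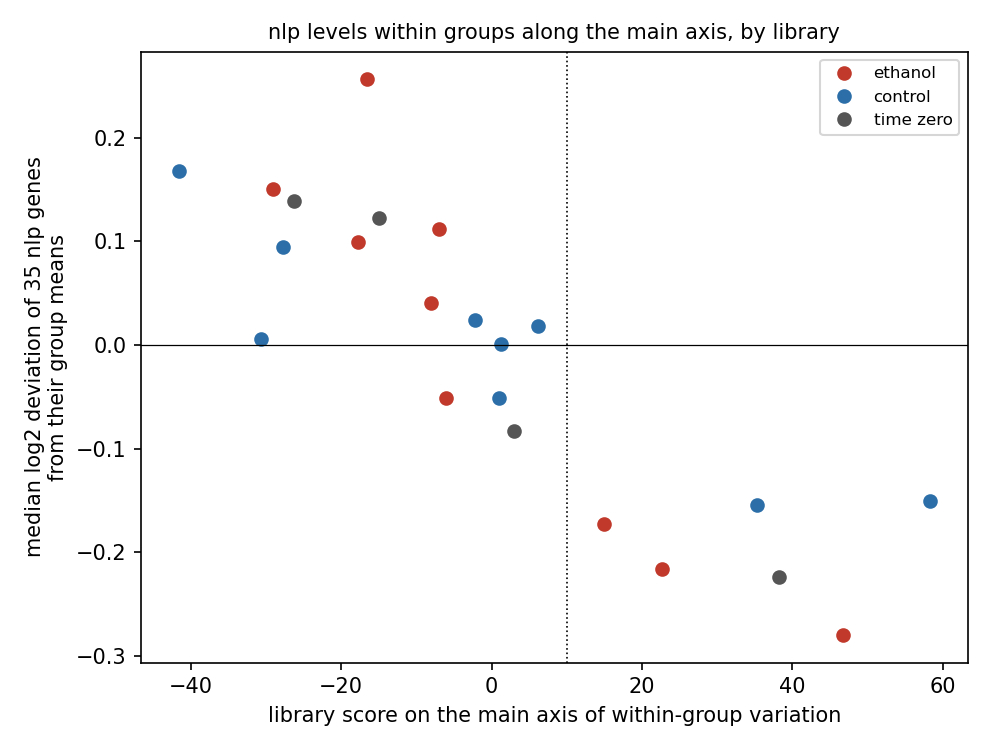
Score of each library on the main axis of variation within groups (horizontal) and the median log2 deviation of the 35 tested nlp genes from their group means (vertical), for ethanol (red), control (blue) and time zero (grey) libraries. The dotted line marks a score of 10. The 6 libraries to its right lie between -0.28 and -0.15, below 0.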

How the data were processed

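PolyA RNA of pooled worms was sequenced for 22 libraries in 7 groups, and the authors deposited whole-number read counts per gene, not normalized. Per the submitters' processing notes, Trimmomatic 0.39, fastp 0.23.2, STAR 2.7.9a and featureCounts of Subread 2.0.3 were used with the genome build ce10. Neither the gene annotation nor the strand setting nor the treatment of multi-mapped reads is given in the sources used here.

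Genes were kept by edgeR's filterByExpr (minimum count 10, minimum total 15), which left 15310 genes and 99.9% of the counts. edgeR 4.0.16 in R 4.3.3 fitted 1 mean per group over all libraries, with TMM factors and the quasi-likelihood test, and p-values were adjusted by Benjamini-Hochberg over all tested genes. CPM values are counts over the library total of the kept genes times its TMM factor. Exon lengths, overlaps, chromosomes and neighbours came from the gene coordinates of the WBcel235 annotation, in which 35 of the 38 members were matched. The coordinates themselves are not given here. The fit was tested on simulated data.

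The members, gene lists and markers were chosen with earlier results of these data known. Named in full were the 5 largest rises and falls of each comparison among called members without overlapping libraries and with at least 10 counts in each group, members with a known role, the 5 highest mean CPM and the 5 smallest adjusted p for a difference between times. The others are named to account for every member. Alternatives were other size factors (RLE, upper quartile), no count filter, a replicate block, a fit of only the groups compared, DESeq2 1.42.0, an added requirement that the log2 fold change reach 1, leaving out every library in turn, and the 6 libraries with a score above 10 on the within-group axis left out. All tested members went through the alternatives. The comparison of ethanol worms at 20 h with time zero was added after the data were seen. Replicates are labelled as biological, but separate cultures are not stated, so the p-values reflect only how these libraries vary, which may be technical. nlp-44, nlp-49 and the precursor proteins were not analysed here.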

Additional observations from a re-analysis of the deposited data

Results flagged for a closer look

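The ethanol effect of 9 members differed between 1, 4 and 20 h by the test of that difference over the 3 times in edgeR's quasi-likelihood fit, beside 40.7% of all tested genes. The adjusted p was 1.12e-07 for nlp-33, 8.86e-06 for nlp-4, 1.54e-05 for nlp-24, 0.00159 for nlp-10 and 0.00171 for nlp-25. It was 0.00315 for nlp-20, 0.00587 for nlp-8, 0.00749 for nlp-38 and 0.00833 for nlp-1.

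One time zero library stood apart from the other 3 in the level of nlp-13, with 6.89 CPM in replicate 1 and 6.58, 6.57 and 6.58 CPM in the others. The gap took a share of 0.954 of the whole range, which is itself small. Chance flags about 1 in 20 groups by this measure.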

How the results depend on the processing

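Over 245 log2 fold changes of the 35 tested members, of which 101 were called, the alternatives gave 3314 values, of which 3184 stayed on their side of the threshold, 103 lost the call, 27 gained it and 0 called values changed sign. The cause of the moved counts below was not tested. With only the groups compared, 11 members were called between ethanol and control worms at 4 h (6 higher, 5 lower), beside 47.6% of all genes. In that setting 2 were lower in control worms at 1 h than at time zero, beside 7.09% of all genes. With a log2 fold change of at least 1, which by its construction counts fewer, 14 were called between ethanol and control worms at 20 h (12 lower). Under that rule 8 were called in ethanol worms at 20 h against time zero (4 higher, 4 lower), 6 in control worms at 4 h (4 higher, 2 lower) and 1 in control worms at 1 h (0 lower). How many of all tested genes pass that rule was not counted, so these counts have no share to be set beside. Without the 6 libraries above 10 on the axis, 5 members were higher in ethanol worms at 4 h and 5 at 20 h, beside 20.9% and 26.4% of all genes. Lower in control worms at 1 h were 2, beside 7.56%, and the effect differed between times in 17, beside 43.2% of all genes. When 1 library was left out, between ethanol and control worms 0 were called at 1 h, 4 to 6 at 4 h and 20 to 26 at 20 h. Of all genes, 4.38% to 6.64%, 24.6% to 25.9% and 47.1% to 52.8% were called in those fits. Against time zero the counts were 1 to 2 in control worms at 1 h (0 to 1 lower), 15 to 20 at 4 h, 27 to 30 at 20 h and 16 to 18 in ethanol worms at 20 h. The shares of all genes were 7.8% to 10.3%, 37.2% to 45.2%, 51.5% to 57.4% and 43.7% to 51.7%. The effect differed between times in 9 to 13 members, beside 36.1% to 41% of all genes. Samples with the same replicate number did not deviate together throughout (correlations of deviations -0.653 to 0.621), so the numbers were not taken as pairs. With the replicate block 0, 6 and 23 members were called between ethanol and control worms at 1, 4 and 20 h, 16 in control worms at 4 h against time zero, and 9 differed between times, with 1 call gained and 8 lost among the 245 values. Of all genes, 5.51%, 28.2% and 50.4% were called with the block at 1, 4 and 20 h. The share was 40.5% in control worms at 4 h against time zero, and 37.2% differed between times. nlp-22, nlp-23 and nlp-32 had at most 5 counts in a library and did not pass the count filter.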
